A study of Mus musculus with 14 samples.

Results

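Hmga2 and Fosl1 were followed as transcript ends in 14 mouse 3P-seq libraries, an assay that sequences the last bases of RNAs in front of the poly(A) tail and so maps where they end. Each gene was taken as a window on 1 strand of mm9, 118001 nt on chromosome 10 (-) for Hmga2 and 11001 nt on chromosome 19 (+) for Fosl1, with main ends at 119798323 and 5455944. Of the 159969 sites obtained by merging all libraries, 17 lay in these windows, 15 in that of Hmga2 and 2 in that of Fosl1. The genes were selected on their CPM values in 3T3, mESC and tissues, high in the cultured cells and near 0 in tissues, so their levels in these libraries are a description and were not tested.

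The libraries came from 3T3, a line of mouse embryonic fibroblasts that the extraction protocol calls NIH3T3, from embryonic stem cells of the mouse (mESC), and from 6 organs of miR-22 knockout (KO) and wild-type (WT) mice. The organs were lung, liver, kidney, heart, muscle and white adipose tissue. Every group had 1 library, the mice are labelled 129S5/SvEvBrd, and the labels repeat that background for both cell samples. Ages, the number of animals and culture conditions are not given in the sources used here. Libraries held between 2036838 and 6010465 tags, of which 2.43% to 31.3% were mitochondrial. No growth measurement is given with the labels, and growth and tissue marker genes were not looked up, because the gene table at hand belongs to another build. That the 3T3 and mESC cultures were proliferating was therefore not checked.

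Hmga2 is an architectural chromatin protein with AT-hooks that grip the minor groove of AT-rich DNA. It is abundant in embryonic and many cultured mesenchymal cells and low in most adult tissues. The last part of its mRNA, the 3′ UTR, is a classical target of the let-7 microRNA family, and where a transcript ends decides whether it carries that part. Fosl1, also called Fra-1, is a Fos-family subunit of the transcription factor AP-1, pairs with Jun proteins, and is induced by serum and growth factor signalling in fibroblasts.

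MicroRNA sequences are shown because let-7 is the known regulator of the Hmga2 3′ UTR and miR-22 is the microRNA the mice lack. Whether miR-22 targets either gene was not examined. Sequences are RefSeq mature forms (GRCm38.p6), 5′ to 3′, with the seed (bases 2 to 8), which pairs with targets, in capitals.
mmu-let-7a-5p: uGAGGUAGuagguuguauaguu
mmu-let-7b-5p: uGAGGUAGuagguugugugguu
mmu-let-7g-5p: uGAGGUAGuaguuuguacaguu
mmu-miR-98-5p: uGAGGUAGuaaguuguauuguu
mmu-miR-22-3p: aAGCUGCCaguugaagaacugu
mmu-miR-22-5p: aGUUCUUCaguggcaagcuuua

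The seed of let-7a was carried by 11 of 1679 mature mouse microRNAs in that table, among them the let-7 forms and miR-98. The seeds of both miR-22 arms differ from it, and each was carried by 1 microRNA of the table. MicroRNA levels were not measured in these libraries.

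Hmga2 was among the most abundant transcript ends of 3T3. The 3T3 library gave 9763 Hmga2 tags, the mESC library 633, and the 12 tissue libraries 3 in all. The mESC count includes 133 tags at a site 100450 nt upstream of the main end, where the transcript was not identified. Scaled to 1000000 tags of the library (CPM), the level was 2305 in 3T3 (95% Poisson interval 2259 to 2351) and 172 in mESC (159 to 186), against 0.0696 over all tissue libraries together (0.0144 to 0.203). One tag is read per transcript end, so CPM does not scale with transcript length. The main end of Hmga2 ranked 36 of 54860 sites with tags in 3T3 and 1422 of 50279 in mESC. The groups did not overlap: the lowest cell library lay far above the highest tissue library, knockout kidney, which held 1 tag or 0.351 CPM.

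Fosl1 followed the same order, below Hmga2 in both cell samples and above it in the pooled tissues. It had 3042 tags in 3T3, 89 in mESC and 27 over the 12 tissue libraries, or 718 CPM (693 to 744), 24.2 CPM (19.5 to 29.8) and 0.626 CPM (0.413 to 0.911). Its main end ranked 179 in 3T3 and 4270 in mESC. The highest tissue library was wild-type lung, with 7 tags or 1.52 CPM, so here too neither cell library overlapped the tissues.

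Expressed as ratios, Hmga2 was 13.4-fold higher in 3T3 than in mESC (95% interval 12.3 to 14.5), and Fosl1 29.6-fold higher (24.0 to 37.0). Against the pooled tissues, Hmga2 was 33115-fold higher in 3T3 (11328 to 160605) and 2477-fold higher in mESC (844 to 12041), which rests on 3 tissue tags. Fosl1 was 1146-fold higher in 3T3 (786 to 1743) and 38.7-fold higher in mESC (24.9 to 61.9) than in pooled tissues. Tags carry no molecular identifiers, so all intervals, and the limit of 3 tags that a count of 0 allows, cover counting error only. With 1 library per cell sample there is no spread between cultures to set these ratios against. In bulk RNA, fewer cells of a type and less RNA per cell cannot be told apart.

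Both genes were at least 4-fold above every tissue library in 3T3 and in mESC. Among 12149 sites of 20 CPM or more in some library, 7.86% met that limit in 3T3, 12.2% in mESC and 4.99% in both. The limit of 4-fold between 3T3 and mESC, which both genes also passed, was met by 29.0% of those sites with 3T3 higher. These contrasts are the ones that chose the genes.

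**Figure D1:**
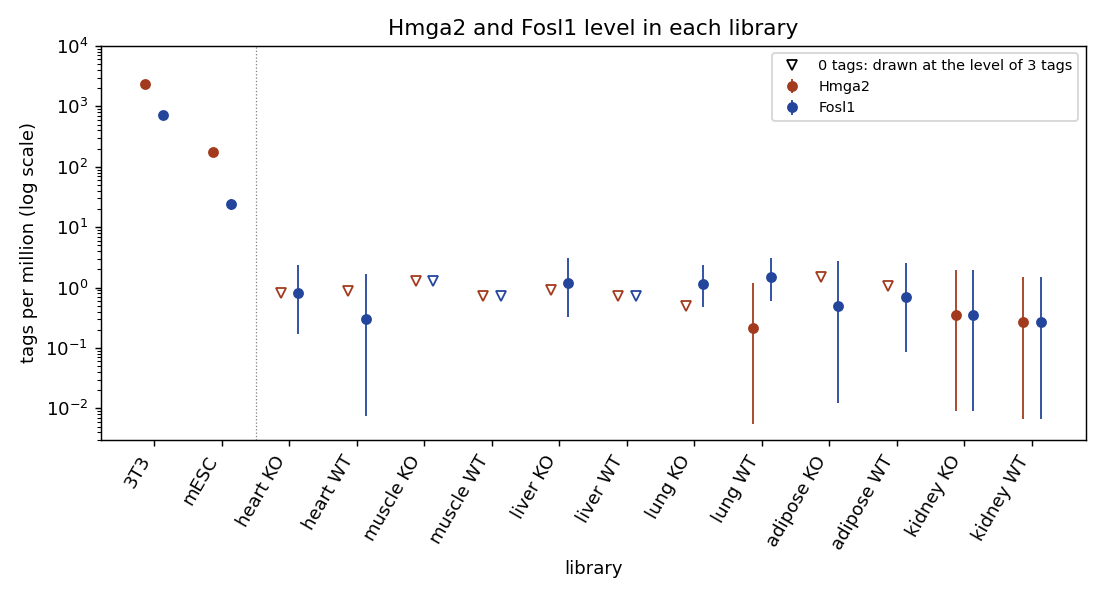
Level of Hmga2 (red) and Fosl1 (blue) in each library, in CPM on a log axis, as the sum over the sites of each window. Bars are 95% Poisson intervals for counting error, each point is 1 library, and open triangles mark libraries with 0 tags, drawn at the level of 3 tags. Hmga2 stood at 2305 and 172 CPM in 3T3 and mESC, and no tissue library exceeded 1.52 CPM for either gene.

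The balance of both genes differed between sources. For each Fosl1 tag there were 3.21 Hmga2 tags in 3T3 (3.08 to 3.34) and 7.11 in mESC (5.69 to 8.98), against 0.111 over the tissue libraries (0.0216 to 0.361). The few pooled tissue tags were thus mostly Fosl1, whereas both cell libraries held mostly Hmga2, and the 3 intervals did not overlap. Lung alone held 14 of the 27 tissue Fosl1 tags, beside 1 Hmga2 tag. Heart, liver and adipose tissue held Fosl1 tags only, kidney held 2 tags of each gene, and muscle held neither. The mESC ratio counts the 133 tags of the unidentified upstream site as Hmga2. It would be lower on the 491 tags of the main end alone, for which no interval was made.

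Transcript ends of Hmga2 were then compared between mESC and 3T3, since an earlier end leaves out the 3′ part of the mRNA. The main end, at 119798323, had 491 of 633 tags in mESC, 77.6% (exact binomial 95% interval 74.1 to 80.8), and 9663 of 9763 in 3T3, 99.0% (98.8 to 99.2). Nearly all of the remainder in mESC lay at 1 site, at 119898773 (interval 119898773 to 119898802), 100450 nt upstream of the main end. That site held 133 tags in mESC, 21.0% of the gene (17.9 to 24.4), but 6 tags in 3T3, 0.0615% (0.0226 to 0.134).

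The far upstream site and the main end went in opposite directions between the cell libraries. At the upstream site the level was 36.2 CPM in mESC and 1.42 CPM in 3T3, 25.6-fold higher in mESC (11.4 to 70.9), while the main end was higher in 3T3. There were 27.1 upstream tags per 100 main-end tags in mESC and 0.0621 in 3T3, an odds ratio of 435 (193 to 1214). Of the 12149 sites above, 34.9% were at least 4-fold higher in mESC than in 3T3, so a 4-fold difference was common between these libraries. How many sites reached 25.6-fold was not counted. Every tissue library was at 0 at the upstream site. Both cell libraries were single, so the odds ratio compares these libraries and not the cell types in general.

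Which transcript ends at the upstream site was not tested. In RefSeq (GRCm38.p6), 5 genes lie inside the span of Hmga2: the long noncoding RNA genes 1700006J14Rik, Gm40783, 9230105E05Rik and Gm51785, and the microRNA gene Mir763. The strand given for 1700006J14Rik, Gm40783 and Gm51785 is opposite to that of Hmga2 and of the upstream site. No strand was looked up for 9230105E05Rik and Mir763. A transcript of Hmga2 that ended there would lack all sequence down to the main end, including the let-7 target region of the last exon.

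**Figure D2:**
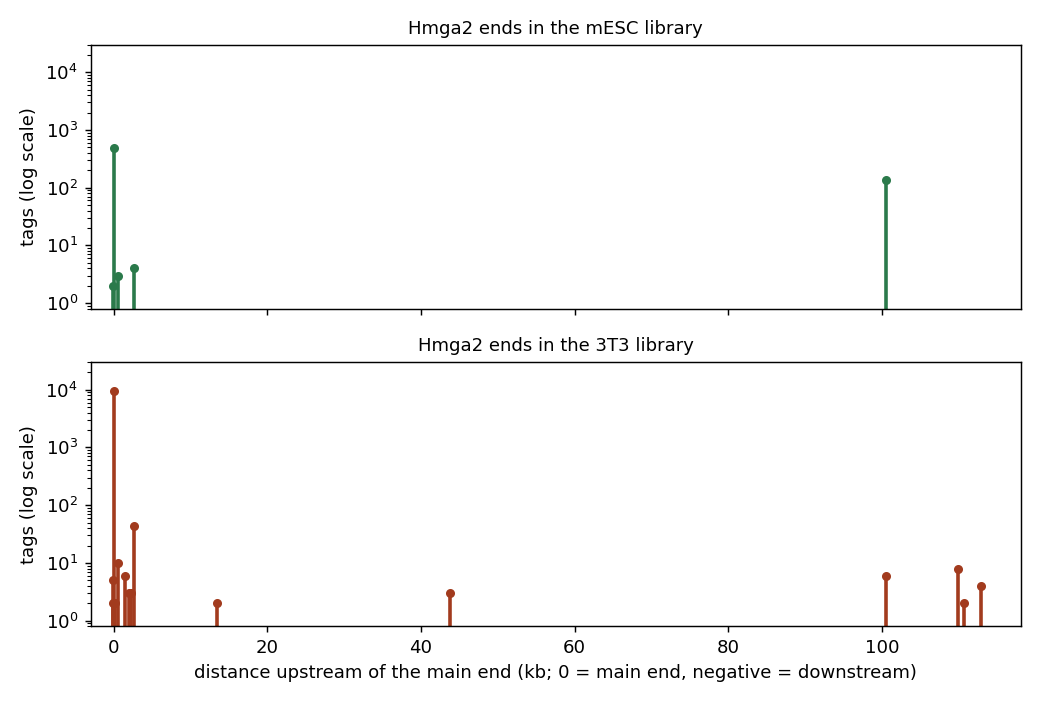
Hmga2 tags at each site with tags in the mESC library (top) and in the 3T3 library (bottom), on a log axis, by distance in kb upstream of the main end. In mESC 133 tags stood about 100 kb upstream beside 491 at the main end, whereas 3T3 had 6 and 9663 at the same sites.

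Earlier ends within the last 3500 nt, the region of the 3′ UTR, were a small share in both cell libraries. They held 7 tags in mESC, 1.11% of the gene (0.446 to 2.27), and 68 in 3T3, 0.697% (0.541 to 0.882). The leading one, at 119801031 and 2708 nt upstream of the main end, had 4 tags in mESC and 44 in 3T3. Per 100 main-end tags this was 0.815 in mESC and 0.455 in 3T3, an odds ratio of 1.79 (0.465 to 4.94), so a difference was not detectable at this depth. The end at 119798929, 606 nt upstream, had 3 tags in mESC and 10 in 3T3, or 0.611 and 0.103 per 100 main-end tags, an odds ratio of 5.90 (1.04 to 23.02). That interval lies just above 1 and covers counting error only. The interval at 119801031 to 119801080 joined neighbouring ends: 3T3 listed 2 overlapping sites there, and the single Hmga2 tag of knockout kidney fell in it.

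The other 12 Hmga2 sites held 55 tags over all 14 libraries, between 2 and 13 each. All 15 sites of the gene had tags in 3T3 and 5 had tags in mESC. Besides the site at 119798929, those of 3T3 included the site at 119908249, 109926 nt upstream, with 8 tags in 3T3 and 0 in mESC. A count of 0 in mESC allows up to 0.474% of the Hmga2 tags of that library, above the 0.0819% this site held in 3T3. A difference in the share of this site was thus not detectable at this depth. In level, the site had 1.89 CPM in 3T3 (0.815 to 3.72), while a count of 0 in mESC allows up to 0.817 CPM. Just downstream of the main end, 7 tags lay in 3T3 and 2 in mESC.

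Nearly all Fosl1 tags lay at 1 position. The site at 5455944 held 89 of 89 tags in mESC, and 3040 of 3042 in 3T3, 99.9% (99.8 to 100). The remaining 2 tags of 3T3 lay 198 nt downstream, at 5456142. No tag was found at an earlier end of Fosl1, which allows a share of up to 3.37% in mESC and 0.0986% in 3T3. The end position varied little: 10 of the 11 libraries with Fosl1 tags at this end ended their interval at exactly 5455944, and 4 of 4 libraries with tags at the Hmga2 main end ended it at 119798323. Several of the tissue libraries in these counts had a single tag.

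The tissues were compared next, where both genes were near the limit of the assay. Hmga2 had 0 tags in 9 of 12 tissue libraries and 1 tag in each of the others. Those 3 were knockout kidney, wild-type kidney and wild-type lung, at 0.351, 0.265 and 0.217 CPM. A library at 0 allows up to 3 tags, which is 0.499 CPM in the deepest tissue library and 1.47 CPM in the shallowest. The tissues could not be ordered for Hmga2. The intervals of kidney (0.0366 to 1.09 CPM over both libraries) and lung (0.00238 to 0.525) overlapped those of heart, muscle, liver and adipose tissue.

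Fosl1 was found in more tissues. Lung had 7 tags in the knockout and 7 in the wild-type library, 1.32 CPM over both (0.721 to 2.21). Heart had 3 in knockout and 1 in wild type, or 0.569 CPM (0.155 to 1.46), and liver 4 and 0, or 0.530 CPM (0.144 to 1.36). Adipose tissue had 1 in knockout and 2 in wild type, or 0.614 CPM (0.127 to 1.79), kidney 1 and 1, or 0.302 CPM (0.0366 to 1.09), and muscle 0 and 0. Lung was thus first in order, but its interval overlapped those of heart, liver, adipose tissue and kidney. Muscle, where 0 tags in both libraries allow up to 0.470 CPM, lay below the interval of lung.

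None of the 17 sites passed the low-count filter of the test across the 23856 sites of the tissue libraries, so none was tested there. In the fit without that filter, which covered 147416 sites, the Fosl1 end was 1.89 higher in lung than in the mean of the other 5 tissues on the log2 scale (edgeR quasi-likelihood adjusted p = 0.125). Of the 3 sites of the genes in that fit, 0 were called in any tissue, with a call taken as 4-fold or more and adjusted p below 0.05. Over all its sites that call was made for 6.01% in lung, 5.92% in liver, 4.51% in kidney, 3.43% in muscle, 3.22% in heart and 2.84% in adipose tissue. At such low counts a p that misses the threshold does not show equal levels between tissues.

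**Figure D3:**
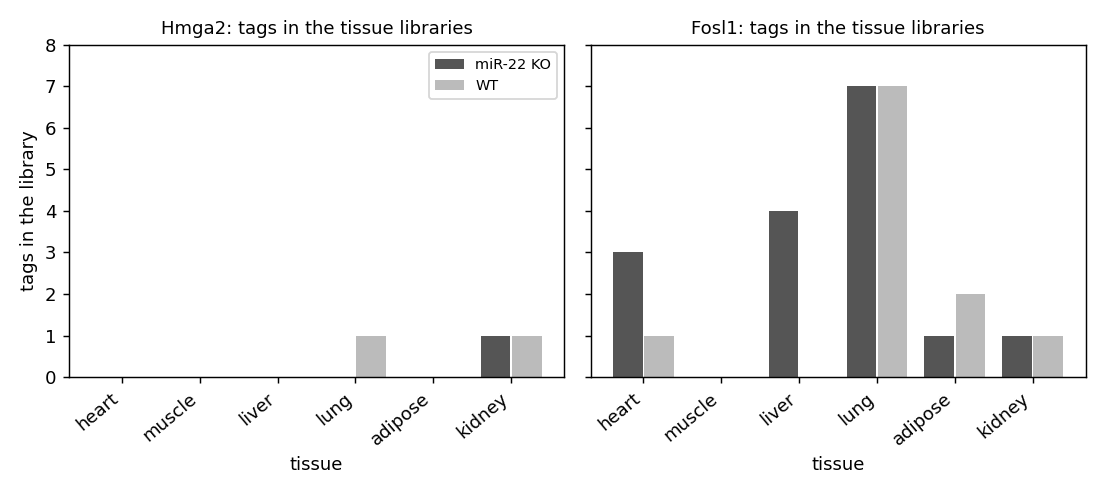
Tags of Hmga2 (left) and Fosl1 (right) in the miR-22 KO (dark bar) and WT (light bar) library of each tissue. Hmga2 had at most 1 tag in a library, and Fosl1 at most 7, in both lung libraries.

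The miR-22 knockout was compared with wild type across tissues, a contrast that did not enter the choice of genes. Fosl1 had 16 tags over the 6 knockout and 11 over the 6 wild-type libraries, or 0.670 ± 0.474 CPM and 0.464 ± 0.577 CPM (SD, n = 6 tissues). In CPM it was higher in knockout in heart, liver and kidney, lower in lung and adipose tissue, and at 0 in both muscle libraries. Both genotypes gave the same Fosl1 count in kidney (1 tag) and in lung (7 tags). The directions in kidney and lung thus reflect library depth alone. That of adipose tissue rests on 1 knockout against 2 wild-type tags. The mean difference on the log2(CPM + 0.1) scale was 0.74 ± 1.57 (SD, n = 6 tissues; exact two-sided sign-flip p = 0.438), smaller than its spread between tissues. Hmga2 had 1 knockout and 2 wild-type tags, and a mean difference of -0.23 ± 0.72 (SD, n = 6 tissues; exact two-sided sign-flip p = 1). Tissues without a difference do not change under a sign flip, so the smallest reachable p was 0.0625 for Fosl1 and 0.5 for Hmga2, and neither test could pass 0.05.

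Neither p was adjusted, and at these counts a several-fold difference between genotypes could go unseen. Over all 23856 tested sites, 82 or 0.344% were called between genotypes (edgeR quasi-likelihood test, adjusted p under 0.05). In the unfiltered fit the Fosl1 end had a log2 difference of 0.47 (edgeR adjusted p = 1.00). The knocked-out gene itself was not looked up, so the genotype labels were not checked here.

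The surroundings of each gene were read to see which ends shared the pattern. Around Fosl1 the nearest end of 20 CPM or more was on the other strand, at 5456546, 602 nt past the Fosl1 end. It had 482 tags or 114 CPM in 3T3 and 24 tags or 6.53 CPM in mESC, while the tissue libraries ran from 4.76 through a median of 14.8 to 43.8 CPM. This end was therefore also highest in 3T3, but mESC lay within the range of the tissues, unlike for Fosl1. RefSeq (GRCm38.p6) has Ccdc85b overlapping Fosl1, and its strand there is the one of this end. Since 3P-seq sites carry a strand, tags of the facing genes are counted apart.

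**Figure D4:**
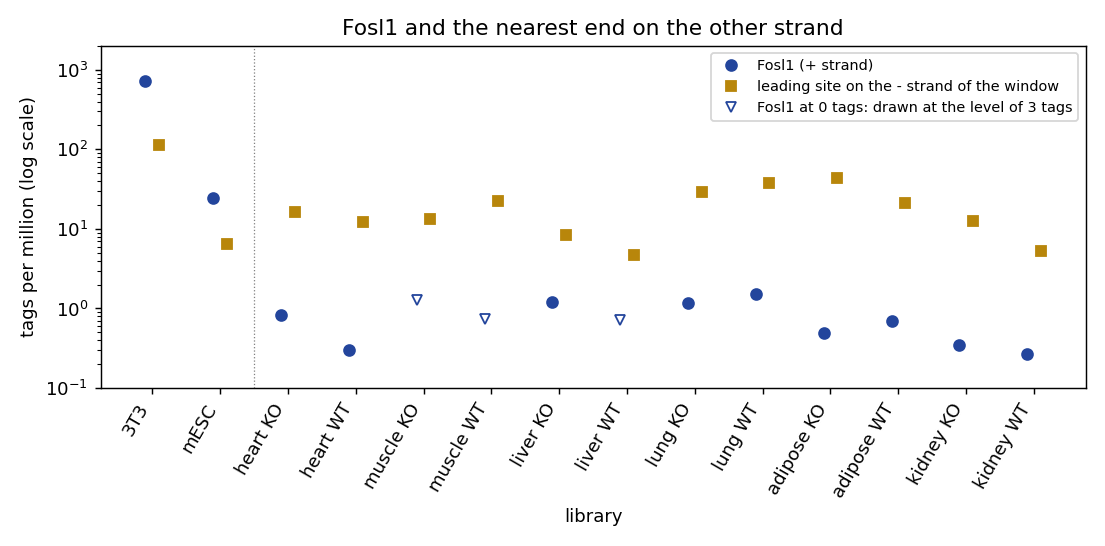
Fosl1 (circles) and the leading end on the opposite strand of its window (squares) in each library, in CPM on a log axis; each point is 1 library, and open triangles mark Fosl1 at 0 tags, drawn at the level of 3 tags. Both were highest in 3T3, at 718 and 114 CPM, but the opposite end was found in all 12 tissue libraries.

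Farther out on chromosome 19, the end at 5401529 (+), 54415 nt below the Fosl1 end, had 48.8 CPM in 3T3, 6.81 CPM in mESC and at most 0.597 CPM in tissues. It was one of the 3 nearest ends of 20 CPM or more on that side. The end between it and Fosl1, at 5427313 (+), went another way, with 10.3 CPM in mESC and between 25.9 and 113 CPM in tissues, while 3T3 lay below the lowest tissue library. Above the window, the end at 5465050 (+) had 67.0 CPM in 3T3, 17.4 CPM in mESC and between 12.2 and 57.6 CPM in tissues, so 3T3 was highest there by a small margin.

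Hmga2 had no such close neighbour. The nearest end of 20 CPM or more on either side, at 119669125 (+), lay 129198 nt from its main end, with 137 CPM in 3T3, 142 CPM in mESC and between 1.49 and 19.5 CPM in tissues. The nearest one on the upstream side, at 120218160 (-), lay 419837 nt away with 89.2 CPM in 3T3, 19.1 CPM in mESC and between 11.4 and 124 CPM in tissues. On the strand opposite to Hmga2, the leading end of the window, at 119896756, had 33 tags in 10 tissue libraries, 1 in mESC and 0 in 3T3. It reached 1.76 CPM in knockout kidney and lay about 2 kb from the upstream Hmga2 site.

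Ends most like each gene were ranked by Pearson's r of log2(CPM + 1) over the 14 libraries, among 12146 ends outside both windows. With tissues near 0, r mostly compares the levels of 3T3 and mESC, and 94 ends reached 0.95 with Hmga2 and 42 with Fosl1. For Hmga2 the first was at chromosome 14, 19100339 (-), with r = 0.999, at 35.9 CPM in 3T3, 8.44 CPM in mESC and 0 in every tissue library. The next were at chromosome 6, 49035224 (-), chromosome 2, 118932217 (+), chromosome 1, 133832896 (+), and chromosome 9, 55055334 (+), each with r between 0.993 and 0.995. None of these 5 exceeded 48.9 CPM in 3T3, far below Hmga2.

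For Fosl1 the first was at chromosome 15, 98913837 (+), with r = 0.991, at 155 CPM in 3T3, 17.4 CPM in mESC and at most 0.651 CPM in tissues. The others were a pair at chromosome 1, 151954604 and 151953049 (+), the chromosome 19 end at 5401529, and chromosome 2, 118931236 (+), with r between 0.980 and 0.986. The last of these lies close to the chromosome 2 end that resembled Hmga2, on the same strand. Hmga2 and Fosl1 themselves had r = 0.972 over the 14 libraries and 0.0844 over the 12 tissue libraries, so their likeness came from both cell libraries. No gene names were given to these ends.

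The start region of Hmga2 was searched because Fosl1 is an AP-1 subunit and both genes were high in the same libraries. The RefSeq promoter (GRCm38.p6) runs from 250 bases before to 50 after the gene start. Shown are 30 bases of it, at chr10:120476573-120476602 (-), 5′ to 3′ on the strand of the gene, with its longest run of C and T in capitals. These coordinates are not those of mm9.
Hmga2 promoter stretch: ccgCCCCCCTCCCTCTCTCTCCCTCTgggg

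C and T made up 69% of the 300 promoter bases, a share reached by 0.408% of 32851 mouse promoters of the same length, and the run of 23 C and T was matched or exceeded in 2.04%. The AP-1 letters TGANTCA were in neither strand of this window, while 7.81% of promoters hold them. GGGCGG, the core of a GC box, is held by 35.7% of promoters on either strand. In Hmga2 it lies on the other strand at the left end of the stretch above and overlaps the run. CCAAT was in neither strand, against 37.4%. No match says only that these letters are not in this window. No promoter of Fosl1 was used here.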

How the data were processed

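Per the submitters' processing notes, reads were called with CASAVA 1.7 and aligned to mm9 with Bowtie. The sources used here do not give its version or how tags became sites. The authors deposited tags per poly(A) site, which are unscaled estimated counts, and 1.21% to 5.79% of a library's sites are not whole numbers. Track lines name an offset of 1, not applied, so positions may differ by 1 nt.

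Same-strand intervals of the 14 libraries with shared or adjoining bases were joined into 1 site, named by the 3′ end of their most abundant interval. Sites with at least 20 tags over all libraries are named, others are counted, and some of these are also given by position, chosen after their values were seen. CPM uses all tags of a library. The genotype and tissue tests used rounded counts, edgeR 4.0.16 in R 4.3.3, filterByExpr (minimum count 10), TMM, and terms for tissue and genotype, with Benjamini-Hochberg adjustment. DESeq2 1.42.0 was an alternative. The edgeR tests were run on simulated counts, with changes placed only in well-covered sites that passed the filter. No site of either gene passed it, so that run does not cover them. Intervals are exact (SciPy 1.17.1). The genes and lists were chosen with earlier results of these data known. Each group had 1 library, so genotype p-values rest on the spread between tissues, not animals. Tissue p-values rest on how far the knockout and wild-type library of an organ differ beyond the genotype term. They too do not rest on repeat animals. The planned lists of related genes and cell markers need an mm9 annotation and were not used here.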

Additional observations from a re-analysis of the deposited data

Results flagged for a closer look

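The end on the opposite strand of the Fosl1 window, at 5456546, stood at 114 CPM in 3T3, although it was not among the sites chosen for either gene. It held 482 tags in 3T3 and 24 in mESC. It was singled out because it is signal in data outside the chosen windows' strands and lies above the 0.708 CPM that a count of 0 allows in the 3T3 library. Every tissue library had tags there, between 20 and 175.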

How the results depend on the processing

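Of the 77 values recomputed under another setting, 67 were counted as unchanged. They kept their direction and side of the threshold, or stayed within their counting interval where no test was made. Counts of calls stayed close to the main count. Not all of the 67 were free to change, so the tally overstates stability. Outside the fit without the filter, the tissue comparisons tested no site of either gene and could make no call. The paired genotype tests of both genes could change direction but could not pass the threshold. Requiring 2 tags per site could not alter values from 3T3 and mESC alone. Every site of the genes with tags there held at least 2. Counting the main end only, the 3T3 over mESC difference of Hmga2 was 4.09 on the log2 scale in place of 3.74, since the upstream site then drops out. Another setting kept only the main end and the 3500 nt upstream of it, without downstream sites. It raised the Hmga2 main-end share to 98.6% in mESC and 99.3% in 3T3, and that of Fosl1 to 100% in 3T3. Counting sites within 200 nt as the main end also gave 100% for Fosl1 in 3T3. For Hmga2 it gave 77.9% in mESC and 99.1% in 3T3. Scaling by TMM or by tags outside the mitochondrial genome moved no ratio beyond its counting interval. Requiring 2 tags per site left Hmga2 with no tissue tag, so its ratios to tissues could not be computed.

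The genotype difference of Hmga2 ran from -0.33 to 0.061 as each tissue pair was left out, changing sign without the lung pair, and rests on 3 tags. That of Fosl1 ran from 0.14 without liver to 0.97 without adipose tissue. With a pseudocount of 0.5 CPM in place of 0.1 the differences were 0.35 for Fosl1 (exact sign-flip p = 0.438) and -0.061 for Hmga2 (exact sign-flip p = 1). With no replicate block, that is with tissues unpaired, the differences were the same, -0.23 and 0.74 (exact permutation p = 1 and 0.405). Over all sites, the calls between genotypes fell to 1 with no replicate block, ran from 13 without the kidney pair to 132 without the adipose pair, were 46 without heart, and were 61 with DESeq2; the cause was not tested. The sites of both genes entered the comparisons of tissues only in the fit without the filter, which was not repeated with a library left out. Depth limits the tissues, where 1 tag is worth up to 0.491 CPM.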
